A study of Mus musculus with 16 samples.

Results

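The comparison described here sets all tumours of mice treated with ADH-503, whatever the time, against all tumours of mice given vehicle, and asks what the treated tumours share. The treated group was taken from the treatment label of each sample and holds 10 of the 16 samples of the series, 5 taken at 48 h and 5 at 10 days. The vehicle group holds the other 6. All mice were female and of strain C57BL/6, and all samples were tumours of an orthotopic pancreatic cancer model, which the labels do not describe further, so neither the tumour line nor the dose and route of the compound is given here. Treated samples carry LA1 in their titles as the name of the compound. For vehicle samples the time is given as control, so the age of their tumours relative to the treated ones is not known. One ID number stands in the titles of both vehicle replicate 2 and 48 h replicate 5, so results were also computed without these 2 arrays. Whether each tumour is from a separate mouse is not stated, so the p-values speak only of how far these samples scatter, which can include technical scatter.

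ADH-503 is a small molecule agonist of CD11b. CD11b, the integrin alpha M chain encoded by Itgam, pairs with CD18, encoded by Itgb2, on neutrophils, monocytes, macrophages and some lymphocytes, and the pair binds complement fragments, fibrinogen and ICAM-1 and takes part in adhesion, migration and Toll-like receptor signalling. Pancreatic tumours are rich in such myeloid cells, which supply inflammatory cytokines and can restrain T cells. RNA of a tumour can hold the transcripts of carcinoma cells, stroma, immune cells, blood and remaining pancreas together. For every gene below, fewer cells of a type and less RNA per cell therefore cannot be told apart. Which of these cells gave most of the RNA was not tested.

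Each tumour was measured on 1 one-colour Agilent array, and values below are log2 signals after the authors' quantile normalization. Of 27308 gene symbols, 22748 were tested, each through its brightest probe. Between 74.9% and 81.2% of probes were well above background on an array, and no spot was saturated. Pairs of arrays had correlations from 0.941 to 0.975 over genes, given as a description since genes are no replicates. The epithelial markers Krt8, Krt18, Krt19 and Epcam were well above background on 16 of 16 arrays, as most probes were. Krt19, a keratin of ducts and ductal carcinoma, lay between 10.87 and 15.15, but the epithelial marker Cldn18 only between 6.40 and 8.18. The list of ductal and tumour epithelium described below averaged 12.08 in ADH-503 and 12.22 in vehicle tumours. The macrophage list averaged 16.44 and 16.40, and the reference genes 15.93 and 15.91. Levels of different genes come from different probes, so they do not rank how much of each cell type was present. The arrays lie on 2 slides, and the groups are spread unevenly over them: slide 1 holds 4 of the 48 h, 3 of the 10 day and 1 of the vehicle arrays, and slide 2 holds 1, 2 and 5. Counts of genes and list medians are therefore given from a plain fit and from a fit with slide as a block. Single genes are given from the plain fit, with the blocked value beside it wherever it differs by more than 1.5 times and for some others. With treatment in the fit, 0 genes differed between the slides at an adjusted p under 0.05 in limma. At an unadjusted p under 0.05, 1338 did, against the 1137 of an even spread of p-values. Pairs of arrays had a mean correlation of 0.963 both within and between slides. The blocked values thus stand beside the plain ones because of the layout, and not because a slide effect was shown. The contrast within slide 1 rests on a single vehicle array.

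No gene separated ADH-503 from vehicle tumours past the threshold. In limma, 0 of 22748 genes (0.0%) reached an adjusted p under 0.05 in the plain fit, where the smallest adjusted p was 0.999977, and 0 (0.0%) did so with slide as a block, where it was 0.99984. At an unadjusted p under 0.05, 416 genes (1.83%) were higher and 317 (1.39%) were lower in ADH-503 tumours in the plain fit, 733 in all against the 1137 that an even spread of p-values would give. With slide as a block the counts were 410 higher (1.8%) and 451 lower (1.98%), and 366 genes were below that level in both fits with the same sign. The plain split depended on the scaling, with 300 higher and 377 lower genes from the scanner's own signal scaled at each array's 75th percentile. In all, 4623 genes had opposite signs in the 2 fits.

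**Figure D1:**
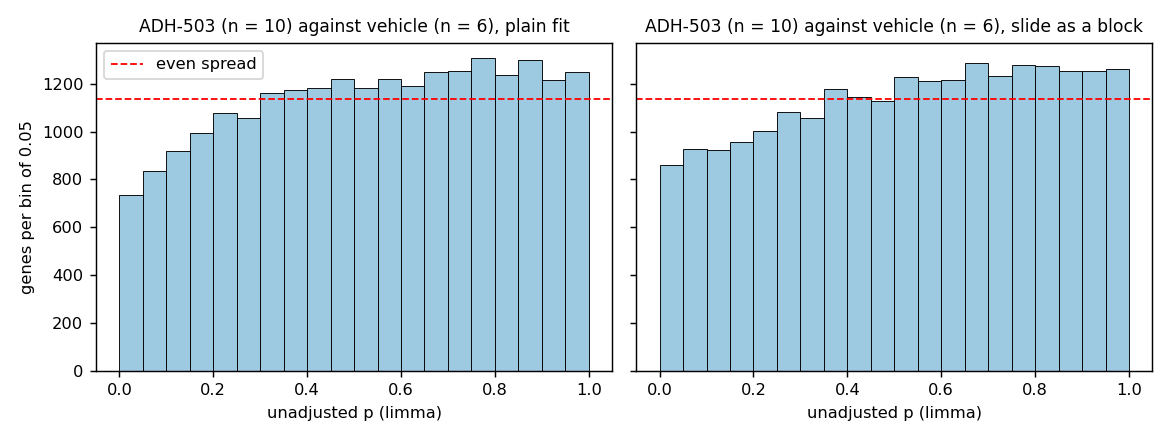
Number of genes (y axis) in each of 20 bins of the unadjusted limma p-value (x axis) for 10 ADH-503 arrays against 6 vehicle arrays, in the plain fit on the left and with slide as a block on the right. The lowest bin holds 733 and 861 genes, both under the 1137 of an even spread, which the dashed line marks.

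Transcripts of the drug's target were at closely similar levels in both groups. Itgam was among the bright genes of the array, and measured 17.58, 17.70 and 17.87 (lowest, median and highest) in ADH-503 tumours, against 17.40, 17.71 and 17.82 in vehicle tumours. Its partner Itgb2 measured 17.25, 17.60 and 17.67 in ADH-503 tumours, against 17.42, 17.53 and 17.75 in vehicle tumours. The ranges overlapped almost entirely for both chains. The log2 fold change was 0.02 ± 0.07 (SE) for Itgam and 0.01 ± 0.08 (SE) for Itgb2 in the plain fit, and 0.04 ± 0.09 (SE) and -0.01 ± 0.09 (SE) with slide as a block. A further Itgam probe gave a difference of 0.02. Among 16 genes of beta2 integrins and their partners, 8 lay above and 8 below vehicle, with a median log2 fold change of -0.01 plain and 0.00 blocked, against 0.00 and 0.01 over all genes tested. Itgad, the CD11d chain found on splenic and tissue macrophages, had the smallest p of the list, with a log2 fold change of -1.96 ± 0.96 (SE) at an unadjusted p = 0.0569. It measured 6.41, 8.71 and 11.13 in ADH-503 tumours, against 8.80, 10.15 and 14.38 in vehicle tumours. The highest value is that of vehicle replicate 3, without which the Itgad difference was -1.27. Vehicle replicate 3 was also the highest array for Treml4, Cd8a and Hba-a1 below.

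Complete separation was rare. Rab11fip2 and Asah2 lay higher on all 10 ADH-503 arrays than on all 6 vehicle arrays, 2 of the 22748 genes tested (0.00879%), and 0 genes (0.0%) lay wholly below. Among so many genes a few can separate by the order of the arrays alone, and how many was not worked out. The separation is therefore given as a description, and neither gene passed the adjusted threshold. Rab11fip2 encodes an effector of the small GTPase RAB11 in endosome recycling. Its probe at chr19:59979701-59979760 (mm9, minus strand) measured 11.97, 12.19 and 12.59 in ADH-503 tumours, against 11.67, 11.76 and 11.90 in vehicle tumours, a log2 fold change of 0.43 ± 0.10 (SE). Asah2 encodes neutral ceramidase, which cleaves ceramide to sphingosine. Its probe at chr19:32120669-32120728 (mm9, minus strand) measured 12.96, 13.04 and 13.49 in ADH-503 tumours, against 12.52, 12.73 and 12.90 in vehicle tumours, a log2 fold change of 0.42 ± 0.10 (SE). With slide as a block the values were 0.47 ± 0.12 (SE) for Rab11fip2 and 0.44 ± 0.12 (SE) for Asah2. The probes of each gene did not all give the same difference. A dimmer Rab11fip2 probe at chr19:59836404-59836463 differed by -0.54, the opposite direction. Of the other 2 Asah2 probes, one differed by 0.34 and the one at chr19:32061250-32061309 by -0.04. The latter was dimmer, with means of 7.92 in ADH-503 and 7.96 in vehicle tumours. Its SDs of 0.64 and 0.93 were larger than the 0.42 of the tested probe, so it says little for or against that value. The 60 bases that measure Asah2 in each case are shown because they set what the 2 values are about, the first being the probe that separated the groups and the second the one that differed by -0.04:
Asah2 separating probe: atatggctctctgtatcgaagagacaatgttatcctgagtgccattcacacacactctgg
Asah2 other probe: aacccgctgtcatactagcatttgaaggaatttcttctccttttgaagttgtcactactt

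Probes also disagreed for Cul5, the cullin scaffold of a ubiquitin ligase that works with SOCS-box proteins, which had the smallest p among the genes higher in ADH-503 tumours and well above background on at least 5 ADH-503 and 3 vehicle arrays. Its tested probe at chr9:53422813-53422872 (mm9) measured 12.62, 12.80 and 13.05 in ADH-503 tumours, against 12.14, 12.43 and 12.62 in vehicle tumours, so that the groups only touched. The log2 fold change was 0.39 ± 0.09 (SE) at an unadjusted p = 0.000314, whereas the 2 other Cul5 probes differed by 0.04 and 0.02.

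Of the other genes leading on the higher side, several were of unknown function. Mill2, an MHC class I-like molecule, measured 9.39, 10.44 and 10.86 in ADH-503 tumours, against 8.89, 9.39 and 10.29 in vehicle tumours, a log2 fold change of 0.91 ± 0.23 (SE). Acvr2a, a type II receptor for activins, measured 9.60, 10.38 and 10.60 in ADH-503 tumours, against 9.37, 9.77 and 10.22 in vehicle tumours, at 0.54 ± 0.15 (SE). Both genes overlapped between the groups, and 9 of the 10 treated arrays lay above the vehicle mean in each. Serpinc1, the antithrombin gene, stood at 0.40 ± 0.11 (SE). Its second probe differed by 0.60, but with SDs of 1.53 in ADH-503 and 1.44 in vehicle tumours, and was well above background on 13 arrays. The oocyte factor Zar1 stood at 0.58 ± 0.16 (SE). The uncharacterised genes Gm26698, AI427809 and 4930571N24Rik stood at 0.88 ± 0.20 (SE), 0.93 ± 0.22 (SE) and 0.95 ± 0.26 (SE). One of the other 2 Acvr2a probes differed by -0.10.

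On the lower side the smallest p among genes measured well above background on that many arrays belonged to Gm31417, a predicted gene. It measured 9.74, 10.06 and 10.66 in ADH-503 tumours, against 10.42, 10.74 and 10.99 in vehicle tumours, a log2 fold change of -0.62 ± 0.13 (SE) at an unadjusted p = 0.000157. Mtnr1a, a melatonin receptor, measured 6.40, 7.14 and 8.15 in ADH-503 tumours, 7 of 10 arrays being well above background, against 7.48, 8.62 and 9.20 in vehicle tumours, a log2 fold change of -1.28 ± 0.28 (SE). The olfactory receptor gene Olfr1247 measured 6.88, 8.01 and 8.64 in ADH-503 tumours, against 8.46, 9.06 and 9.29 in vehicle tumours, at -1.03 ± 0.23 (SE). For all 3 genes every treated array lay below the vehicle mean, with the ranges still overlapping. B3gat1, the glucuronyltransferase that makes the CD57 carbohydrate, stood at -0.49 ± 0.13 (SE) and the Mediator subunit gene Med7 at -0.29 ± 0.08 (SE). Other B3gat1 probes differed by only -0.18 and -0.02. The 3 probes of Med7 all lay lower, at -0.24, -0.29 and -0.33. Gm7616, AU023525, Gm10030 and Gm33759, whose roles are not known, stood between -0.50 and -1.53.

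**Figure D2:**
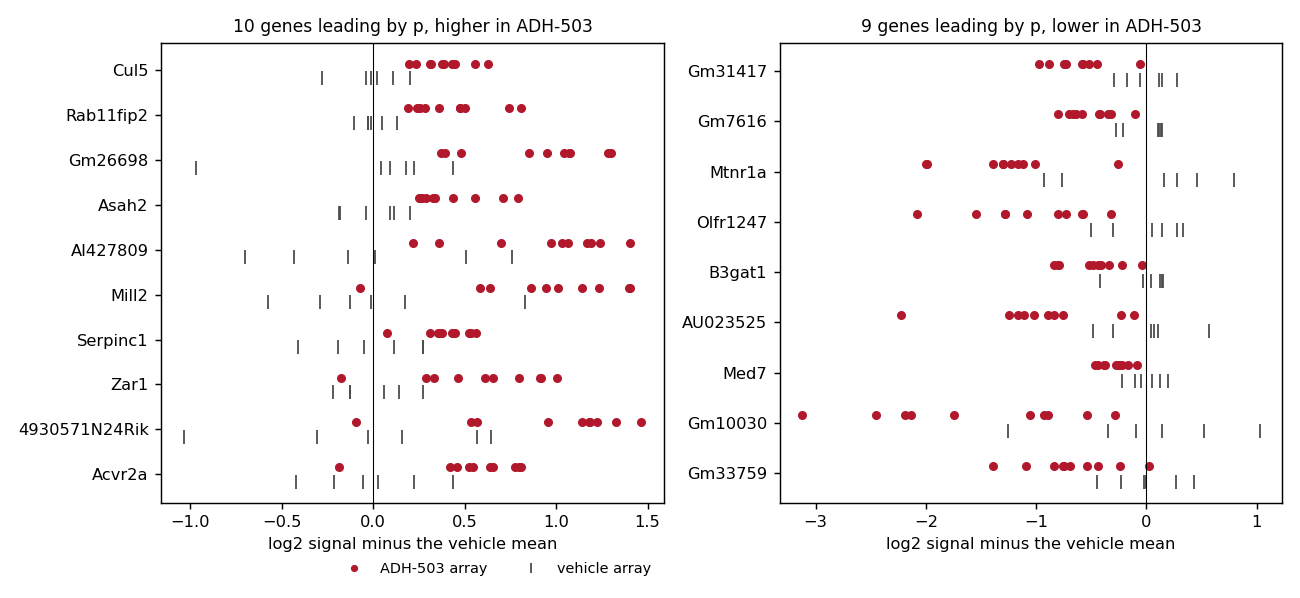
Log2 signal minus the vehicle mean (x axis) for genes leading by p in the plain fit, 10 higher (left) and 9 lower (right) in ADH-503 tumours, with 1 dot for each of 10 ADH-503 arrays and 1 tick for each of 6 vehicle arrays. The dots and ticks are apart for Rab11fip2 and Asah2 and overlap or touch in each of the other genes shown.

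Adding slide to the fit changed which genes led, although no gene differed between the slides past the adjusted threshold. Lif, the IL-6 family cytokine leukaemia inhibitory factor, measured 10.66, 12.16 and 12.96 in ADH-503 tumours, against 12.16, 12.79 and 13.35 in vehicle tumours, a log2 fold change of -0.67 ± 0.33 (SE) in the plain fit and -1.24 ± 0.27 (SE) with slide as a block. Mmp19, a matrix metalloproteinase, measured 14.82, 15.97 and 16.22 in ADH-503 tumours, against 15.71, 15.88 and 16.32 in vehicle tumours, at -0.26 ± 0.23 (SE) plain and -0.71 ± 0.16 (SE) blocked. Olr1, the scavenger receptor LOX-1 of macrophages and endothelium, stood at -0.36 ± 0.26 (SE) plain and -0.86 ± 0.19 (SE) blocked. All 3 overlapped between the groups. The uncharacterised 2310043M15Rik had the smallest blocked p among such lower genes, at -1.02 ± 0.20 (SE), and Olfr1247 stood beside it at -1.19 ± 0.27 (SE). On the higher side Tusc2, a candidate tumour suppressor, stood at 0.23 ± 0.15 (SE) plain and 0.51 ± 0.11 (SE) blocked, and the zinc finger gene Zfp296 at 0.49 ± 0.22 (SE) and 0.86 ± 0.19 (SE). Kir3dl2 stood at 0.51 ± 0.15 (SE) plain and 0.69 ± 0.16 (SE) blocked. Fam92b stood at 0.74 ± 0.49 (SE) and 1.61 ± 0.39 (SE), and Cul5 kept a blocked value of 0.42 ± 0.10 (SE).

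**Figure D3:**
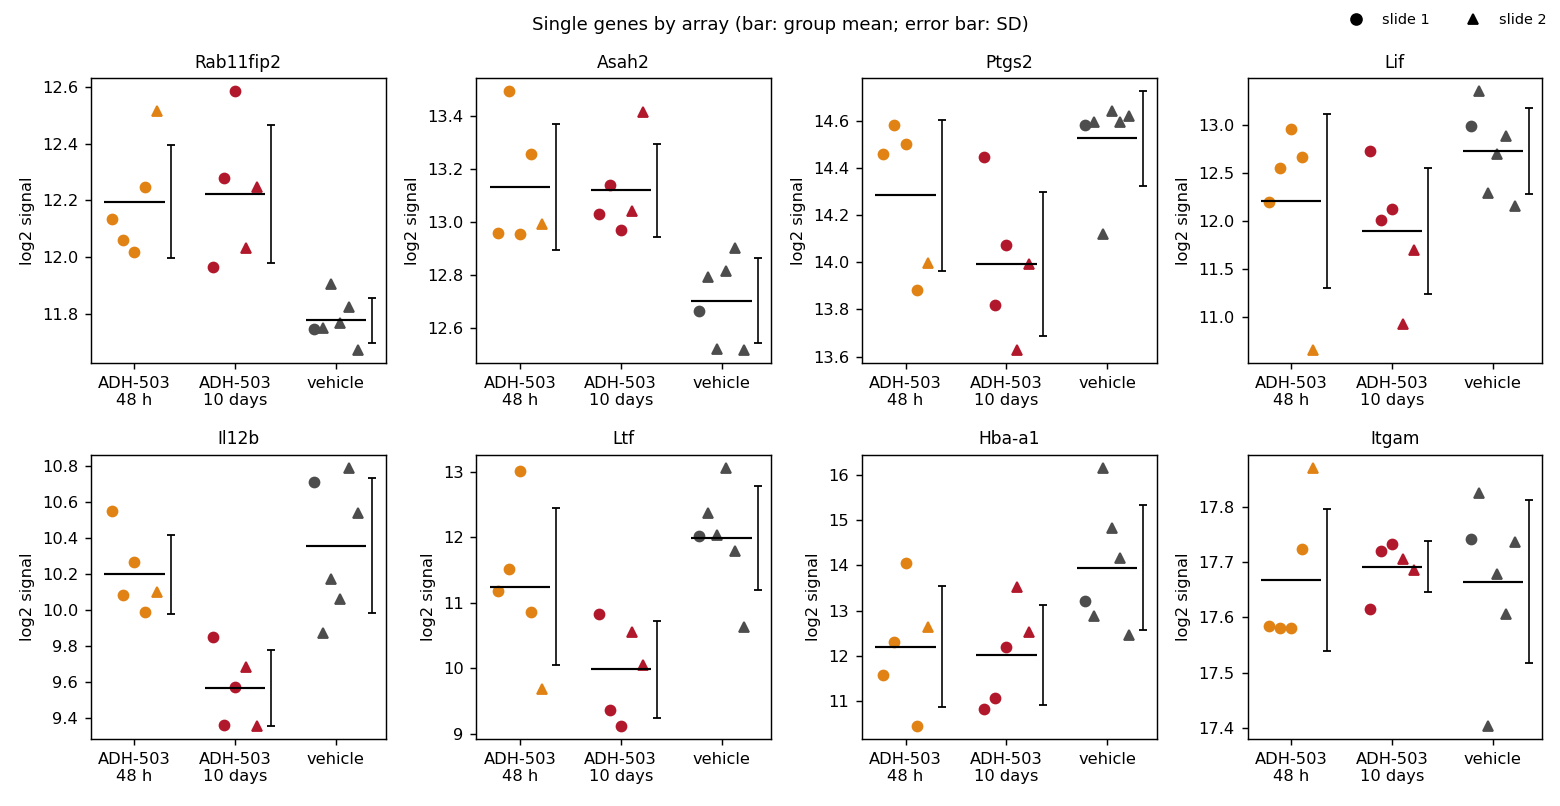
Log2 signal (y axis) of 8 genes on each array, by group (x axis), with circles for slide 1 and triangles for slide 2, a horizontal bar at the group mean and an error bar of 1 SD. Rab11fip2 and Asah2, the genes whose groups do not overlap, are higher in both treated groups. Ptgs2, Lif, Il12b, Ltf and Hba-a1 are lower on average with overlap, and Itgam is level.

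Gene groups were described by 25 pathway and 25 cell type lists, in which 669 genes were tested, and in 0 of the 50 lists did a member reach an adjusted p under 0.05 in limma in either fit. Of the list medians, 38 lay below 0 in the plain fit and 32 with slide as a block, and 14 had opposite signs in the 2 fits. Between the slides 30 of 50 medians had opposite signs, and leaving out a single array turned the sign of 24 medians in the plain fit and 22 with slide as a block. Over all genes tested 11424 of 22748 lay above vehicle, with a median log2 fold change of 0.00.

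**Figure D4:**
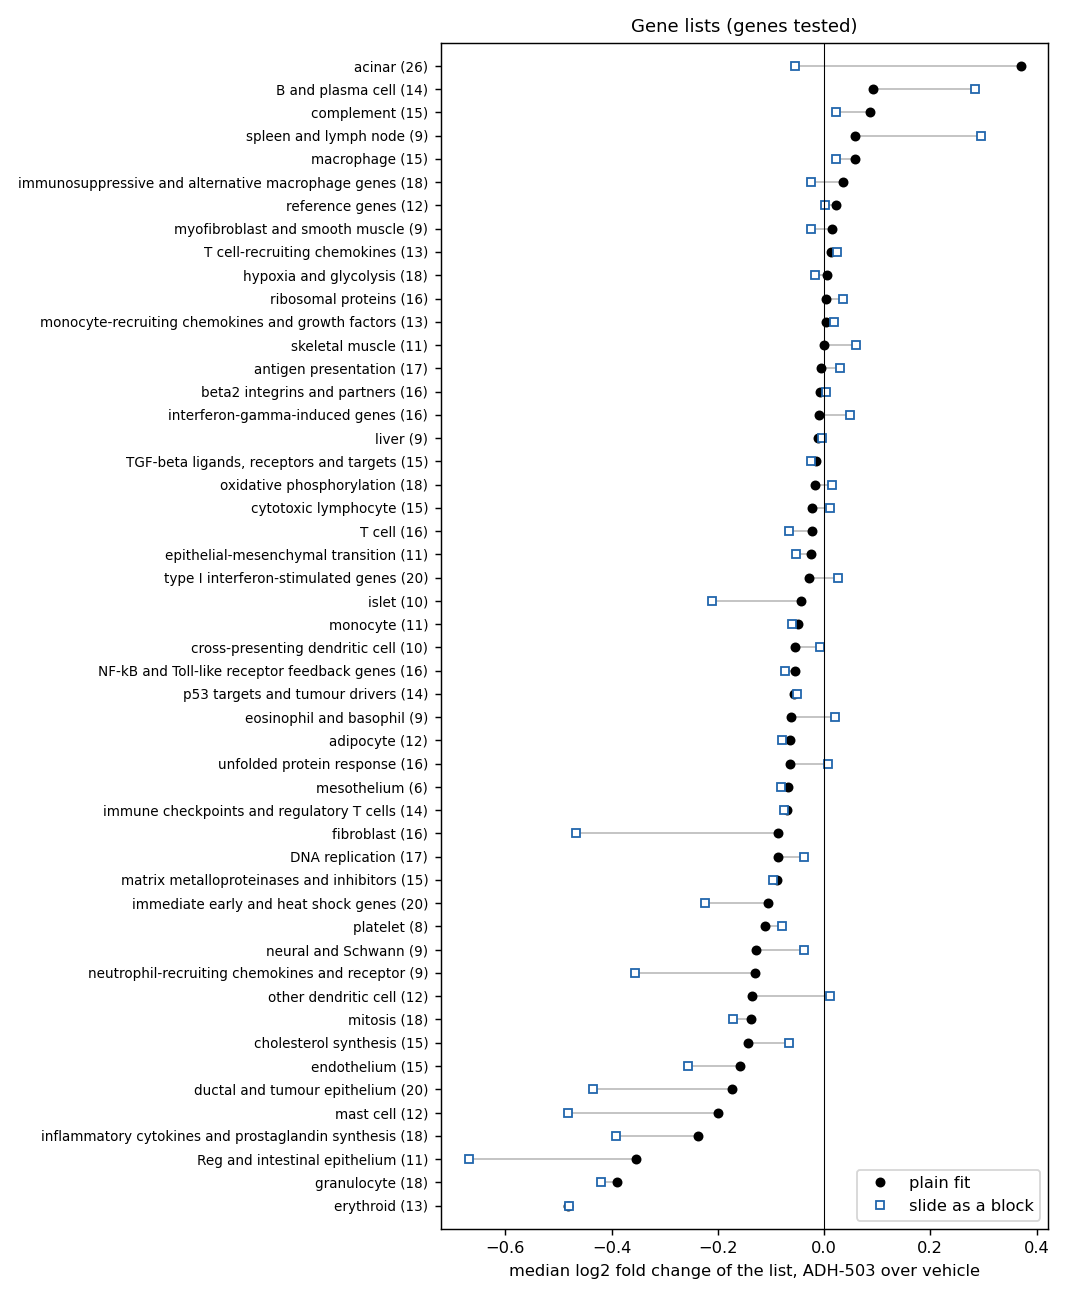
Median log2 fold change of each gene list, ADH-503 over vehicle (x axis), in the plain fit (black dots) and with slide as a block (open blue squares), with the number of genes tested in brackets. Erythroid, granulocyte, Reg and inflammatory cytokine lists lie lowest in the plain fit, and the acinar list, which lies highest at 0.37, moves to -0.05 with slide as a block.

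Inflammatory cytokines and prostaglandin enzymes lay mostly below vehicle, none past the adjusted threshold. Of 18 genes tested, 16 lay below vehicle and 2 above in both fits, with 3 at an unadjusted p under 0.05 in the plain fit and 7 with slide as a block, all of them lower. Over all genes tested the shares of lower genes at that level were 1.39% and 1.98%, and the counts of the lists below stand against the same shares. The median log2 fold change was -0.24 in the plain fit and -0.39 in the blocked one, and the 2 slides taken alone gave -0.24 on slide 1 and -0.52 on slide 2. Ptgs2, the cyclooxygenase that starts prostaglandin synthesis in inflammation, measured 13.63, 14.04 and 14.58 in ADH-503 tumours, against 14.12, 14.60 and 14.64 in vehicle tumours. Vehicle arrays other than replicate 3 lay within a narrow band at the top of the treated range, and the log2 fold change was -0.39 ± 0.15 (SE) plain and -0.54 ± 0.16 (SE) blocked. Il12b, which encodes the p40 subunit of interleukins IL-12 and IL-23, measured 9.36, 9.92 and 10.55 in ADH-503 tumours, against 9.87, 10.35 and 10.79 in vehicle tumours, at -0.48 ± 0.19 (SE) plain and -0.63 ± 0.22 (SE) blocked. The IL-6 family cytokine Osm measured 15.59, 15.93 and 16.28 in ADH-503 tumours, against 16.01, 16.17 and 16.47 in vehicle tumours, at -0.25 ± 0.10 (SE) plain and -0.34 ± 0.12 (SE) blocked. Of the 10 treated arrays, 9 lay below the vehicle mean for Ptgs2 and for Il12b, and 8 for Osm. Leaving out 1 array at a time moved the plain median of the list between -0.27 and -0.20. The mean of the list ran from 12.15 to 12.98 in ADH-503 tumours and from 12.62 to 13.02 in vehicle tumours, so the lowest treated arrays lay below all vehicle arrays and the highest among them. The granulocyte list, described next, also lay mostly below vehicle, and its part in the cytokine values was not tested.

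RefSeq promoter windows (GRCm38.p6) were held for 14 of the 18 cytokine genes, and the 250 bases before the start were searched on both strands for the letters of 3 motifs. The AP-1 letters TGANTCA stood before 5 of the 14 genes and in 26.3% of their 19 windows, against 6.75% of all 32851 windows. The letters of an NF-kB motif stood before 2 of the 14 genes, in 10.5% of their windows against 1.41% of all. The CRE letters TGACGTCA stood in none of the 19 and in 1.55% of all windows. Windows of 1 gene can overlap, the motifs were chosen after the values were seen, and a match is a description of the letters and not a shown binding site. The windows of Lif and Ptgs2, the genes with the smallest p of the list in the blocked and in the plain fit, are printed 5′ to 3′ with an AP-1 match in capitals. Lif lies at chr11:4257318-4257567 and Ptgs2 at chr1:150099781-150100030, both on the plus strand:
Lif: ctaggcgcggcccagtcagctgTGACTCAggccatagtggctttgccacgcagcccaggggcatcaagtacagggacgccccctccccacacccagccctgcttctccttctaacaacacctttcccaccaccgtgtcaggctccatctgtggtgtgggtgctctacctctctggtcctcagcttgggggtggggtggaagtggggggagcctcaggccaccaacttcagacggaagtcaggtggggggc
Ptgs2: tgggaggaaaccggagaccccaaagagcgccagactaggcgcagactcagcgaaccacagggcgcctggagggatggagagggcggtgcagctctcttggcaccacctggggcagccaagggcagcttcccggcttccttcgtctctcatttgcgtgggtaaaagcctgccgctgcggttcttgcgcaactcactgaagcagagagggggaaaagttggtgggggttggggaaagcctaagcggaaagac

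Granulocyte markers also lay mostly below vehicle, with wide scatter between tumours. Of 18 genes, 15 lay below vehicle and 3 above in both fits, with 1 at an unadjusted p under 0.05 in the plain fit and 2 blocked, all lower. The median was -0.39 in the plain fit and -0.42 blocked. Ltf, encoding the secondary granule protein lactoferrin, measured 9.11, 10.69 and 13.01 in ADH-503 tumours, against 10.63, 12.03 and 13.06 in vehicle tumours. Of the 10 treated arrays 9 lay below the vehicle mean, with wide overlap, and the log2 fold change was -1.37 ± 0.51 (SE) plain and -1.66 ± 0.59 (SE) blocked. Ngp, neutrophilic granule protein, stood at -1.27 ± 0.64 (SE), the cathelicidin gene Camp at -0.96 ± 0.57 (SE) and S100a9, a calprotectin chain, at -0.60 ± 0.35 (SE) in the plain fit. The list's mean ran from 10.74 to 12.61 in ADH-503 tumours and from 11.48 to 12.68 in vehicle tumours. Without vehicle replicate 2 the plain median was -0.26. Of 9 neutrophil-recruiting chemokines and receptors, 7 lay below vehicle, with a median of -0.13 plain and -0.36 blocked and 0 at an unadjusted p under 0.05 in limma. Without 48 h replicate 3 the plain median was -0.28. The chemokine receptor Cxcr2 stood at -0.51 ± 0.35 (SE) and its ligand Cxcl3 at -0.50 ± 0.41 (SE) plain and -0.86 ± 0.45 (SE) blocked, while Csf3, the granulocyte growth factor G-CSF, stood at 0.52 ± 0.37 (SE). Cxcl5 stood at -0.78 ± 0.53 (SE) plain and -0.38 ± 0.61 (SE) blocked, but only 4 of 10 treated and 5 of 6 vehicle arrays were well above background.

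Immediate early genes and their feedback phosphatases lay mostly below vehicle by small amounts. Of 20 immediate early and heat shock genes, 15 lay below vehicle in the plain fit and 17 with slide as a block, with 1 and 6 lower genes under an unadjusted p of 0.05 and medians of -0.11 and -0.22. Dusp5, a phosphatase that switches off ERK, measured 14.63, 15.33 and 15.58 in ADH-503 tumours, against 15.54, 15.59 and 15.66 in vehicle tumours, a log2 fold change of -0.33 ± 0.13 (SE) plain and -0.52 ± 0.12 (SE) blocked. Every treated array lay below the vehicle mean, and the vehicle arrays formed a tight cluster at the top of the treated range. Dusp1 stood at -0.20 ± 0.10 (SE) plain and -0.32 ± 0.11 (SE) blocked. The transcription factor gene Egr2 stood at -0.19 ± 0.09 (SE) plain, and Egr1 at -0.17 ± 0.13 (SE) plain and -0.26 ± 0.15 (SE) blocked. The plain median was -0.07 without vehicle replicate 6. Of 16 NF-kB and Toll-like receptor feedback genes 12 lay below vehicle in the plain fit and 10 blocked, with medians of -0.06 and -0.07. Bcl3, a nuclear IkB protein, stood at -0.22 ± 0.10 (SE), with its other probe the opposite way, and Tnfaip3, encoding the NF-kB brake A20, at -0.23 ± 0.16 (SE) plain and -0.45 ± 0.15 (SE) blocked. Tlr7, an endosomal receptor for RNA, stood at 0.48 ± 0.24 (SE) plain and 0.30 ± 0.27 (SE) blocked, with 1 of its 2 other probes opposite.

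Macrophage markers lay close to vehicle or slightly above. Of 15 genes, 11 were above vehicle in the plain fit, 1 at an unadjusted p under 0.05, with a median log2 fold change of 0.06, and 10 were above with slide as a block, with a median of 0.02. C1qa, a chain of complement C1q made by tissue macrophages, measured 16.96, 17.21 and 17.38 in ADH-503 tumours, against 16.82, 17.01 and 17.29 in vehicle tumours, at 0.19 ± 0.08 (SE) plain and 0.11 ± 0.09 (SE) blocked. Of the 10 treated arrays 9 lay above the vehicle mean, with wide overlap. The growth factor receptor gene Csf1r stood at 0.13 ± 0.07 (SE). Complement genes gave 12 of 15 above vehicle plain and 9 blocked, with medians of 0.09 and 0.02. Of 18 immunosuppressive and alternative macrophage genes 12 lay above vehicle plain and 7 blocked, with medians of 0.04 and -0.02. The haemoglobin scavenger receptor Cd163 stood at 0.28 ± 0.14 (SE) plain and 0.04 ± 0.12 (SE) blocked, and the mannose receptor Mrc1 at 0.18 ± 0.11 (SE) and 0.15 ± 0.13 (SE). Monocyte markers had 3 of 11 above vehicle plain and 4 blocked, with medians of -0.05 and -0.06, and Treml4, a receptor of patrolling monocytes and splenic macrophages, at -0.56 ± 0.21 (SE). Treml4 was below the vehicle mean on all 10 treated arrays, and vehicle replicate 3 stood apart at 15.05, the difference being -0.37 without it. Among 13 monocyte-recruiting chemokines and growth factors 7 lay above vehicle in both fits, with medians of 0.00 and 0.02. Ccl8 stood at 0.20 ± 0.10 (SE) plain and 0.09 ± 0.11 (SE) blocked, and Ccl4 at -0.29 ± 0.16 (SE) plain and -0.54 ± 0.14 (SE) blocked.

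Lymphocyte lists had medians near 0 in the plain fit. T cell markers had 6 of 16 above vehicle plain and 2 blocked, with medians of -0.02 and -0.07. Cytotoxic lymphocyte markers had 5 of 15 above plain and 8 blocked, with medians of -0.02 and 0.01, and 0 genes of either list at an unadjusted p under 0.05 in limma in either fit. Cd8a, the co-receptor of cytotoxic T cells, measured 9.47, 10.45 and 11.11 in ADH-503 tumours, against 9.54, 11.03 and 12.93 in vehicle tumours, at -0.70 ± 0.40 (SE), with its other probe the opposite way. Without vehicle replicate 3 the Cd8a difference was -0.34. The granzyme gene Gzma stood at -0.60 ± 0.35 (SE) plain and -0.36 ± 0.40 (SE) blocked, the T cell surface gene Cd5 at -0.33 ± 0.18 (SE) and the T-bet gene Tbx21 at -0.23 ± 0.14 (SE). All 4 overlapped between the groups. B and plasma cell markers had 9 of 14 above vehicle plain and 12 blocked, with medians of 0.09 and 0.28, but -0.34 within slide 1 and 0.65 within slide 2, and -0.14 in the plain fit without vehicle replicate 2. T cell-recruiting chemokines had 8 of 13 above vehicle plain and 10 blocked, with medians of 0.01 and 0.02, and the B cell chemokine Cxcl13 at 0.63 ± 0.46 (SE) and the interferon-induced Cxcl9 at -0.57 ± 0.46 (SE) plain and -0.18 ± 0.51 (SE) blocked. Type I interferon-stimulated genes had 7 of 20 above vehicle and a median of -0.03 in the plain fit, and 12 above and 0.03 with slide as a block. Interferon-gamma-induced genes had 8 of 16 above and -0.01 plain, and 13 above and 0.05 blocked, so the sign of both medians turned. Without vehicle replicate 2 the type I median was -0.17 plain and -0.10 blocked, and the interferon-gamma median -0.05 and 0.02. Among the genes induced by interferon-gamma, the guanylate-binding protein genes Gbp6 and Gbp4 stood at 0.73 ± 0.49 (SE) and -0.43 ± 0.30 (SE) plain, and Gbp4 at -0.11 ± 0.32 (SE) blocked. Gbp6 measured 4.83 in vehicle replicate 2, against 6.72 to 8.42 in the other vehicle arrays, and its lowest treated array stood at 6.06. Antigen presentation genes had 8 of 17 above vehicle plain and 11 blocked, with medians of 0.00 and 0.03. Immune checkpoint and regulatory T cell genes had 3 of 14 above vehicle in both fits and medians of -0.07 and -0.08. Cross-presenting dendritic cell markers had 3 of 10 above vehicle plain and 4 blocked, with medians of -0.06 and -0.01. Tlr3, the double-stranded RNA receptor of these cells, stood at 0.23 ± 0.10 (SE) and above the vehicle mean on 10 of 10 treated arrays, with its other probe opposite. The other dendritic cell list had 3 of 12 above vehicle and a median of -0.14 in the plain fit, but 8 above and a median of 0.01 with slide as a block.

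Mast cell markers had 3 of 12 above vehicle plain and 2 blocked, with medians of -0.20 and -0.48. The plain median was -0.07 without vehicle replicate 2, and it was 0.04 at 48 h and -0.42 at 10 days against the same vehicle arrays. The tryptase Tpsab1 stood at 0.79 ± 0.44 (SE), with wide overlap. The protease gene Mcpt2 was well above background on only 3 of 10 treated and on 5 of 6 vehicle arrays, and measured 4.64, 5.33 and 8.77 in ADH-503 tumours, against 4.61, 7.44 and 8.54 in vehicle tumours. Eosinophil and basophil markers had 4 of 9 above vehicle plain and 5 blocked, with medians of -0.06 and 0.02. Epx, the eosinophil peroxidase gene, measured 7.16, 7.80 and 8.16 in ADH-503 tumours, against 7.72, 8.03 and 8.92 in vehicle tumours, at -0.41 ± 0.18 (SE), and every treated array lay below the vehicle mean.

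Acinar cells make the digestive enzymes of the pancreas, and their markers gave the highest median of any list in the plain fit, but not with slide as a block. Of 26 genes, 20 lay above vehicle in the plain fit and 9 with slide as a block, 0 at an unadjusted p under 0.05 in limma in either, with medians of 0.37 and -0.05. The median was 0.54 within slide 1 and -0.45 within slide 2. At 48 h it was 0.82 and at 10 days -0.20, both against the same vehicle arrays. The chymotrypsin-like protease Ctrl measured 12.82, 15.19 and 15.73 in ADH-503 tumours, against 13.00, 13.33 and 15.19 in vehicle tumours, at 0.80 ± 0.53 (SE) plain and 0.44 ± 0.61 (SE) blocked. The zymogen granule protein Zg16 stood at 0.62 ± 0.37 (SE) plain and 0.29 ± 0.41 (SE) blocked, and the elastase Cela1 at 0.41 ± 0.26 (SE) and 0.18 ± 0.29 (SE). Treated tumours thus spanned the whole vehicle range and beyond, and without vehicle replicate 5 the plain median was 0.11.

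Ductal and tumour epithelium markers had 2 of 20 above vehicle in both fits, with a median of -0.17 plain and -0.44 blocked, 0.20 within slide 1 and -0.68 within slide 2. The plain median was 0.11 without vehicle replicate 2. Krt19 averaged 13.09 ± 1.41 in ADH-503 tumours and 13.33 ± 1.04 in vehicle tumours (SD), a spread far larger than the plain difference of -0.24 or the blocked one of -0.75. Reg lectins, which pancreas and gut express under inflammation, were listed together with genes of intestinal epithelium, and the list had 0 of 11 above vehicle in both fits, with a median of -0.35 plain and -0.67 blocked. Reg3b measured 10.22, 11.65 and 13.72 in ADH-503 tumours, against 11.70, 12.93 and 13.43 in vehicle tumours, at -0.97 ± 0.48 (SE) plain and -1.25 ± 0.56 (SE) blocked. Reg3a stood at -0.80 ± 0.48 (SE) and Reg3g at -1.11 ± 0.71 (SE) plain and -1.83 ± 0.77 (SE) blocked. The list's median was -0.04 at 48 h and -0.43 at 10 days. Without 10 day replicate 5 the plain median was -0.23. Islet markers had 4 of 10 above vehicle in both fits and medians of -0.04 and -0.21, and the insulin gene Ins2 stood at -0.84 ± 0.64 (SE) plain and -1.62 ± 0.67 (SE) blocked, with a single treated array at 15.18. Vehicle replicates 1 and 4 were high for Ins2, at 15.93 and 14.46, and the plain difference was -0.27 without vehicle replicate 1.

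**Figure D5:**
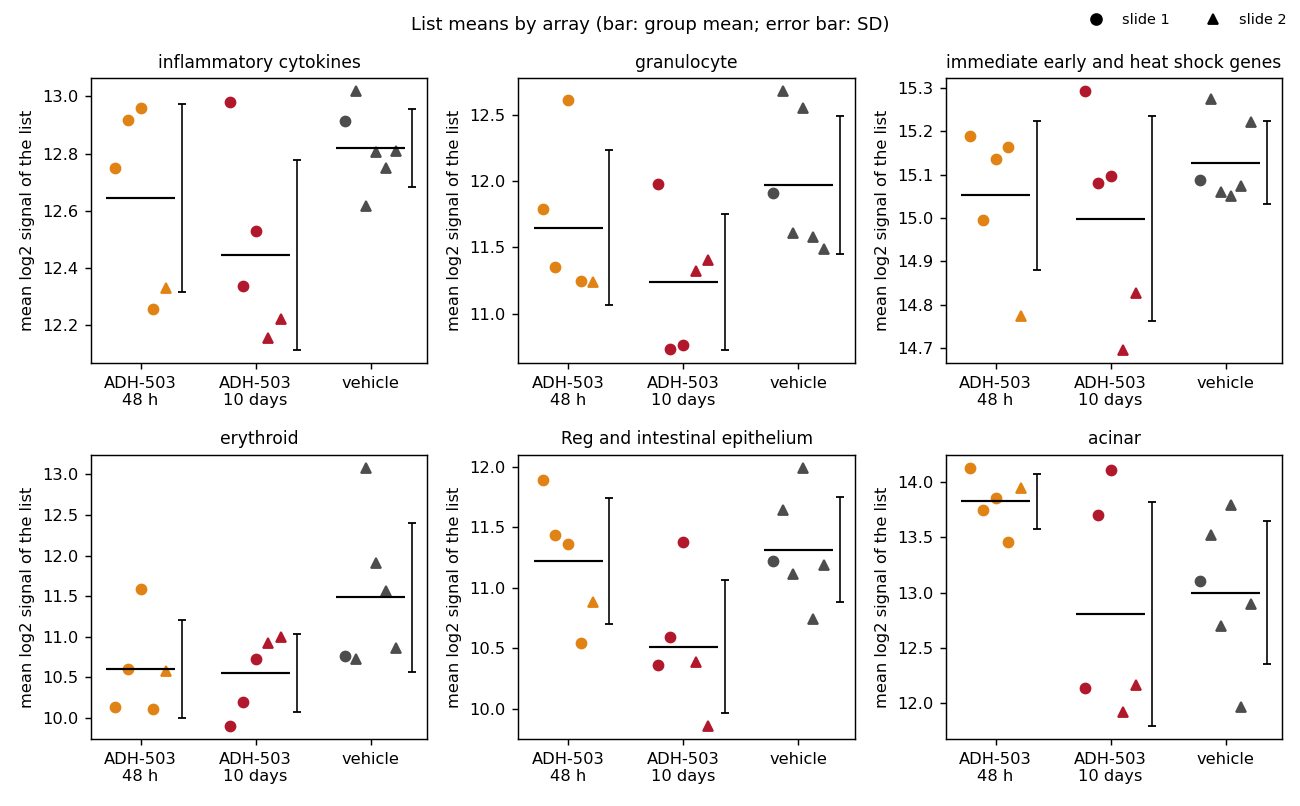
Mean log2 signal of the genes of 6 lists (y axis) on each array, by group (x axis), with circles for slide 1 and triangles for slide 2, a bar at the group mean and an error bar of 1 SD. In every list the treated and vehicle arrays overlap, and vehicle replicate 3 forms the high end of the erythroid list at 13.08.

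Red cell markers had the lowest median of any list in the plain fit. Of 13 genes, 12 lay below vehicle in both fits, with 3 under an unadjusted p of 0.05 in limma's plain fit, 0 in the blocked one, and a median of -0.48 in each. Hba-a1, an alpha globin gene, measured 10.42, 12.24 and 14.05 in ADH-503 tumours, against 12.45, 13.69 and 16.17 in vehicle tumours, a log2 fold change of -1.84 ± 0.61 (SE) plain and -1.28 ± 0.68 (SE) blocked. Hba-a2, a near-identical copy whose probe may read the same transcripts, stood at -2.06 ± 0.70 (SE) plain and -1.41 ± 0.78 (SE) blocked. Hbb-bt, which encodes a beta globin, stood at -3.11 ± 1.24 (SE) plain and -1.79 ± 1.35 (SE) blocked, with 6 of 10 treated and 6 of 6 vehicle arrays well above background. For each of the 3 globins 9 of the 10 treated arrays lay below the vehicle mean. Within slide 1 the list's median was 0.02 and within slide 2 it was -0.71, and without vehicle replicate 3 the plain median was -0.25. How much blood each sample held was not measured, and its part in these values was not tested.

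Endothelial markers had 4 of 15 above vehicle, with a median of -0.16 plain and -0.26 blocked. Without vehicle replicate 1 the blocked median was 0.03, and without vehicle replicate 6 the plain one was -0.26. The VEGF receptor gene Kdr stood at -0.41 ± 0.20 (SE) and the junction gene Esam at -0.44 ± 0.25 (SE), while Lyve1, carried by lymphatic endothelium and some macrophages, stood at 0.65 ± 0.31 (SE) plain and 0.31 ± 0.33 (SE) blocked. Platelet markers had 2 of 8 above vehicle plain and 1 blocked, with medians of -0.11 and -0.08, and the plain one was 0.01 without vehicle replicate 3. Adipocyte markers had 3 of 12 above vehicle plain and 2 blocked, with medians of -0.06 and -0.08, and the hormone gene Adipoq at -0.89 ± 0.40 (SE) and the fatty acid carrier Fabp4 at -0.43 ± 0.22 (SE).

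Fibroblast markers had 6 of 16 above vehicle plain and 5 blocked, with medians of -0.09 and -0.47, the blocked one being -0.12 without 10 day replicate 5. The stromal glycoprotein gene Pdpn stood at -0.27 ± 0.21 (SE) plain and -0.53 ± 0.21 (SE) blocked, and the receptor gene Pdgfrb at -1.16 ± 0.69 (SE). Pdgfrb measured only 4.69 and 4.74 in 48 h replicates 2 and 4. The other treated arrays ran from 7.29 to 9.25 for this gene, and the vehicle arrays from 6.87 to 9.33. Myofibroblast and smooth muscle markers had 5 of 9 above vehicle plain and 4 blocked, with medians of 0.02 and -0.02, and Synpo2, an actin-binding protein of smooth muscle, at 0.80 ± 0.32 (SE) and 1 of its 2 other probes opposite. Among 15 genes of TGF-beta ligands, receptors and targets, 7 lay above vehicle plain and 6 blocked, and the median was -0.02 in both. The ligand gene Tgfb2 measured 8.32, 8.75 and 10.26 in ADH-503 tumours, against 6.75, 8.15 and 8.91 in vehicle tumours, at 1.01 ± 0.33 (SE) plain and 0.66 ± 0.36 (SE) blocked, with 10 of 10 treated arrays higher than the mean of vehicle. Epithelial-mesenchymal transition genes had 4 of 11 above vehicle plain and 3 blocked, with medians of -0.02 and -0.05, and Ovol1, a transcription factor that keeps the epithelial state, stood at 0.57 ± 0.23 (SE) plain and 0.69 ± 0.27 (SE) blocked. Matrix metalloproteinases and their inhibitors had 3 of 15 above vehicle plain and 2 blocked, with medians of -0.09 and -0.10. Their genes Mmp3, Timp1 and Plaur stood at -0.40 ± 0.33 (SE), -0.20 ± 0.16 (SE) and -0.26 ± 0.19 (SE) plain, and at -0.83 ± 0.34 (SE), -0.37 ± 0.17 (SE) and -0.40 ± 0.22 (SE) blocked.

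Genes of mitosis lay mostly just below vehicle. Of 18 genes 16 lay below in the plain fit and 17 with slide as a block, 0 at an unadjusted p under 0.05 in limma, with medians of -0.14 and -0.17. The plain median was -0.06 without vehicle replicate 1, the only vehicle array of slide 1. The survivin gene Birc5 measured 14.38, 14.59 and 14.97 in ADH-503 tumours, against 14.59, 14.80 and 14.92 in vehicle tumours, at -0.17 ± 0.10 (SE), and the spindle protein gene Nusap1 stood at -0.24 ± 0.15 (SE). The whole vehicle range of Birc5 lay within the treated one. DNA replication genes had 13 of 17 below vehicle plain and 12 blocked, 2 and 1 of them under an unadjusted p of 0.05, with medians of -0.09 and -0.04. The replication factor genes Mcm10, Cdc45 and Mcm5 stood at -0.33 ± 0.14 (SE), -0.32 ± 0.15 (SE) and -0.44 ± 0.21 (SE), the other Mcm10 probe being opposite. Genes of the unfolded protein response had 14 of 16 below vehicle in the plain fit and 8 with slide as a block, with medians of -0.06 and 0.01. Chac1, a glutathione-degrading enzyme induced by this response, measured 9.73, 10.47 and 10.89 in ADH-503 tumours, against 10.52, 10.93 and 11.33 in vehicle tumours, at -0.50 ± 0.18 (SE) plain and -0.60 ± 0.21 (SE) blocked, and every treated array lay below the vehicle mean. Cholesterol synthesis genes had 13 of 15 below vehicle and a median of -0.14 plain, with 12 below and -0.07 blocked, and the plain one was -0.08 without vehicle replicate 5. Hypoxia and glycolysis, oxidative phosphorylation, ribosomal protein and reference genes had medians between -0.02 and 0.02 in the plain fit and between -0.02 and 0.04 with slide as a block. The list of p53 targets and tumour drivers had 3 of 14 above vehicle plain and 4 blocked, with medians of -0.06 and -0.05. Lists of tissue next to a pancreatic tumour gave plain and blocked medians of -0.13 and -0.04 for nerve and Schwann cells, -0.07 and -0.08 for mesothelium, -0.01 and 0.00 for liver, and 0.00 and 0.06 for skeletal muscle. Spleen and lymph node markers had medians of 0.06 plain and 0.30 blocked, -0.17 within slide 1 and 0.43 within slide 2, and -0.13 in the plain fit without vehicle replicate 2.

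The pooled comparison holds 2 times, and the 10 day tumours did not differ from the 48 h tumours at any gene past the threshold: 0 of 22748 genes (0.0%) had an adjusted p under 0.05 in limma, the smallest adjusted p being 0.766, and 833 had an unadjusted p under 0.05. Each time's own value against the shared vehicle arrays is given side by side for the leading genes. Rab11fip2 had log2 fold changes of 0.42 at 48 h and 0.45 at 10 days, Asah2 0.43 and 0.42, and Cul5 0.40 and 0.37. These genes were named for a small pooled p and for lying on the same side at both times, so nothing is read from how alike the times are. Of the immune genes, Ptgs2 had -0.24 at 48 h and -0.53 at 10 days, Il12b -0.16 and -0.79, Lif -0.52 and -0.83, and Ltf -0.74 and -2.01. For Hba-a1 the values were -1.76 at 48 h and -1.93 at 10 days, and for Dusp5 -0.26 and -0.40. List medians were -0.18 at 48 h and -0.26 at 10 days for the cytokines, -0.24 and -0.44 for granulocyte markers, -0.43 and -0.56 for red cell markers, and 0.05 and 0.06 for macrophage markers. The signs at the 2 times were opposite for 19 of the 50 lists. Whether treatment acted differently on the 2 slides was tested as an interaction, with 0 genes past the threshold and a smallest adjusted p of 0.0541 in limma.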

How the data were processed

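Tumour RNA, amplified as cDNA and labelled with Cy5 per the labels' protocols, was hybridised to 16 one-colour arrays, and the submitters' processing notes name Agilent Feature Extraction 11.5.1.1. The values used are the log2 signals of the authors' deposited table of 56605 probes, which its name and its columns, equal after sorting to within 0.0043, show to be quantile-normalized. Spot intensity in the deposited scanner files is background-subtracted, detrended and unscaled, per the file headers, and served as an alternative, and the deposited flags, 0 or 1 per spot (another kind of value), gave which probes were well above background. Each column correlated with its own array's log2 intensity at r = 0.998 or more. Probe positions are on mm9, per the file headers.

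Of the probes, 10246 carry no symbol and were set aside. For each symbol the probe of highest mean over all arrays was used, and it was tested if 5 or more of 16 arrays had it well above background. limma 3.58.1 (R 4.3.3; lmFit, robust eBayes) compared 10 ADH-503 with 6 vehicle arrays, without covariates and with slide, read from the column names, as a fixed block, and Benjamini-Hochberg adjustment of the 2-sided p-values ran over all genes, with a threshold of 0.05. The fits were run on simulated data with independent genes and set changes, as a check of the code. It does not show how well changes of the sizes reported here can be found. The number of arrays and their uneven spread over the slides limit the precision. Replicate numbers name arrays in accession order.

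Genes named are the 10 per direction with the smallest plain p and the 5 per direction with the smallest blocked p, among those with 5 or more ADH-503 and 3 or more vehicle arrays well above background and on the same side of vehicle at both times, those whose groups do not overlap, Itgam and Itgb2, up to 4 members with the smallest plain p per list, and, chosen after their values were seen, Krt8, Krt18, Krt19 and Epcam as markers of the tissue. Of the genes this rule takes, 2 are not reported here. Lists are described by counts and medians, with no test. Of 695 list genes 669 were tested, and 3 had no match. The comparison, the lists and the genes were chosen with earlier results of these data known. Alternatives were other sources of values, background corrections, filters, probe rules, variance models, slide models, and leaving out arrays. Chosen after seeing the data were 2 of them, scanner values with slide as a block and the fit without the 2 arrays of 1 ID with slide as a block, and the test of probes without a symbol.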

Additional observations from a re-analysis of the deposited data

Results flagged for a closer look

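Each of the 98 genes named from the fits or the lists was searched, in the 10 ADH-503 and in the 6 vehicle arrays, for 1 array far from the rest of its group. Of 196 groups, 15 (7.65%) held one, where chance alone flags about 1 in 20. Among vehicle arrays, replicate 3 was far below the others for Gm26698 at 8.38, B3gat1 at 10.80 and Ptgs2 at 14.12, and far above them for Treml4 at 15.05. Vehicle replicate 2 was high for Cxcr2 at 13.44, replicate 1 low for Fam92b at 6.59, replicate 4 low for Mcpt2 at 4.61, and replicate 5 low for Pdgfrb at 6.87.

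Among the treated arrays, 48 h replicate 5 was high for Itgam at 17.87 and low for Tbx21 at 12.07, and 48 h replicate 4 was low for Acvr2a at 9.60 and for Gbp6 at 6.06. At 10 days, replicate 3 was low for Serpinc1 at 10.36 and high for Ins2 at 15.18, where the next treated array stood at 12.26, and replicate 1 was low for Itgb2 at 17.25.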

How the results depend on the processing

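No gene passed the adjusted threshold in limma with slide as a fixed or random block, within either slide, from scanner signals, with normexp, with all probes averaged, with a stricter filter, a variance trend, 3 groups, array weights, or without the 2 arrays of 1 ID. With no filter on dim probes 1 gene did, and leaving out 1 array gave 0 to 1 genes in the plain fit, the 1 coming without vehicle replicate 3, and 0 to 0 with slide as a block. At an unadjusted p under 0.05, slide 2 alone gave 879 higher and 1052 lower genes. Leaving out 1 array gave 271 to 619 higher genes, lowest without vehicle replicate 5 and highest without vehicle replicate 3, and 223 to 436 lower genes in the plain fit. With slide as a block it gave 292 to 889 higher and 311 to 1123 lower genes, both highest without vehicle replicate 1, which leaves no vehicle array on slide 1. Of the 98 named genes, 80 kept their sign in all settings run and 18 did not, 54 of 4590 values being reversed, and 0 gained a call. In log2 fold change, averaging all probes gave Rab11fip2 -0.0554 and Mcm10 0.0362. Slide 1 alone gave Itgam -0.093, Itgb2 -0.2092, Cxcr2 0.1871, Cd5 0.1644, Gzma 0.7553, Tbx21 0.2725, Tlr3 -0.1734, Cxcl13 -0.5545 and Adipoq 0.2445. Slide 2 alone gave Cd163 -0.0126, Tpsab1 -0.1119, Cxcl9 0.3316, Gbp4 0.2304, Zg16 -0.0835, Cela1 -0.028 and Ctrl -0.3117. Scanner signals gave Itgam -0.0101. Itgb2 was -0.0075 with slide as a block, -0.0097 without the 2 arrays of 1 ID and -0.0196 with both, where Cd163 was -0.0034. Leaving out 1 array, Itgam ran from -0.0372 to 0.0471 and Itgb2 from -0.0151 to 0.0507 in the plain fit. The blocked fits that turned Itgam gave -0.007 and -0.0033, and those that turned Itgb2 gave -0.0412, -0.034, -0.0274, -0.0267, -0.0131, -0.013, -0.0113, -0.0096, -0.0088, -0.0082, -0.0054, -0.002 and -0.0015. Other reversals in the blocked fit ran from -0.0126 to -0.0044 for Cd163, 0.0046 to 0.3316 for Cxcl9, -0.0835 to -0.002 for Zg16 and -0.028 to -0.0125 for Cela1, with Tpsab1 at -0.1119, Gbp4 at 0.2304 and Ctrl at -0.3117. Of 2350 list medians under these settings, 2240 moved by less than the spread (SD) between vehicle arrays. In some lists that spread was larger than the median itself, at 0.65 against 0.37 for acinar and 0.92 against -0.48 for red cell markers. The count therefore does not show that such medians kept their sign or size. The cause of these shifts was not tested. No paired analysis was possible because the labels give the groups no shared replicate numbers. Probes near background limit what can be read from the dimmest genes.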

Other observations

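Under alternative settings 2 genes passed the adjusted threshold, and both were picked after their values were seen. The probe of 4930448H16Rik at chr5:143996308-143996367 (mm9), a gene of unknown function, was not well above background on any of 10 ADH-503 arrays and was so on 4 of 6 vehicle arrays, and was therefore not tested. It measured 4.56, 4.58 and 4.65 in ADH-503 tumours, against 6.80, 7.10 and 8.02 in vehicle tumours. It is given no fold, because not all vehicle arrays were well above background either. Its limma adjusted p was 1.14e-07 when dim probes were kept. The treated values lay at the floor with an SD of 0.03, against 0.46 in vehicle tumours, so this p does not measure scatter between tumours. All treated arrays lay below all vehicle arrays, and it was the only 1 of the 4560 genes under the filter for which this held. For another 1 of these genes all treated arrays lay above all vehicle arrays. Plscr4, a phospholipid scramblase gene, had an adjusted p of 0.0243 in limma without vehicle replicate 3, but was well above background on only 6 of 10 ADH-503 and 1 of 6 vehicle arrays, so no fold is given. It measured 6.48, 7.28 and 8.53 in ADH-503 tumours, against 4.71, 5.002 and 7.46 over all vehicle tumours.

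The array also holds probes with no gene symbol, of which 8248 passed the filter. In limma 0 of them passed the adjusted threshold in either fit, and 271 (3.29%) had an unadjusted p under 0.05 in the plain fit and 365 (4.43%) with slide as a block.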
